A study of Mus musculus with 7 samples.

Results

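The simple epithelial keratins Krt7, Krt8, Krt18, Krt19 and Krt20, together with vimentin (Vim), were examined as 6 genes chosen by name out of the 42256 in the count table. All 6 passed the filter on low counts that left 17964 genes for testing. The 7 libraries came from the kidneys of adult male mice on a mixed background of 129S1/Sv x C57BL/6, of which 3 were labelled CDH11+/+ (wild type) and 4 CDH11-/- (knockout of Cdh11, the gene of the adhesion molecule cadherin-11, with no tissue-specific driver given in the labels). Every mouse in both groups had 1 kidney removed and received angiotensin II, the hormone that raises blood pressure, from an implanted pump at 800 ng/kg/min. All were killed 4 weeks after surgery. No uninjured kidney was analysed here, so a difference that existed before injury cannot be told apart from a different response to it, and littermate status was not given in the labels.

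Keratins are the intermediate filament proteins of epithelia, and their filaments form only when a type II chain (here Krt7 or Krt8) pairs with a type I chain (here Krt18, Krt19 or Krt20). Krt8 and Krt18 are the primary pair of single-layered epithelia. In the kidney, simple keratins are most abundant in the collecting duct and other distal segments and in the lining of the renal pelvis, and they are known to rise in injured tubules. Vimentin is the type III filament protein of fibroblasts, vascular cells, leukocytes and podocytes, and dedifferentiated tubule cells can also make it.

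Krt8, Krt18, Krt7 and Krt20 were lower in the kidneys labelled knockout, and vimentin showed no difference (log2 fold change 0.00). Krt18 fell to 34.4% of the wild-type-labelled level, and Krt8, its usual partner, fell to 55.3%. Krt7 fell to 68.8% and the scarce Krt20 to 39.9%. The fall of Krt18 was the larger of these with all libraries, but that of Krt20 was slightly larger without wild-type-labelled replicate 3 (log2 fold changes -1.24 and -1.25) and without knockout-labelled replicate 3 (-1.56 and -1.60). Krt19 was at 55.0% of the wild-type-labelled level but did not pass the test. A gene was called changed at a Benjamini-Hochberg adjusted p under 0.05 in edgeR's quasi-likelihood test over all genes. Thus 4 of the 5 keratins were called lower, where 12.9% of all tested genes were called lower, 16.8% higher and 29.7% in either direction. The values of the 5 keratins did not overlap between the groups, with the knockout-labelled libraries lower, which held for 16.6% of all tested genes. Non-overlap in either direction held for 38.5%.

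Total counts ranged from 72087906 to 84786351 per library, and values below are CPM, read counts scaled to a common library size. Cdh11 had 4.52 to 10.8 CPM in wild-type-labelled and 9.56 to 11.6 CPM in knockout-labelled libraries. Its mean was higher with the knockout label, but the groups overlapped. With all libraries Cdh11 was not called (log2 fold change 0.56, SE 0.25, adjusted p = 0.14). Of 19 alternatives, 3 called it higher in knockout-labelled libraries, among them the fit that omits replicate 3 of the wild-type label (0.93, adjusted p = 0.0043). Over all 19 the log2 fold change ran from 0.08 to 0.93. Which exons the knockout allele lacks is not stated in the labels, so gene-level counts do not check it, and the groups are therefore called by their labels. Wild-type-labelled replicate 3 stood apart in the summed CPM of Y-linked genes, at 64.7 against 111 to 145 in the other 6 libraries. Mitochondrial ribosomal RNA took 13.5% to 18.2% of counts in wild-type-labelled and 10.7% to 13.5% in knockout-labelled libraries. Nothing in the labels says whether each library is a separate mouse, so p-values measure the spread between these libraries. In whole tissue, fewer cells of a type and less RNA per cell cannot be told apart.

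The genes of Krt8 and Krt18 lie next to each other on mouse chromosome 15, with 23697 bases between them, and the sequence just before each is shown because these partners fell together. Krt8 (ENSMUSG00000049382, chr15:101996698-102004482, minus strand) and Krt18 (ENSMUSG00000023043, chr15:102028180-102032027, plus strand) are read away from each other. The stretch of each RefSeq promoter window (GRCm38.p6, 5′ to 3′ on the gene's strand) that lies before any GENCODE exon follows, and capitals mark the letters CACCTG. That hexamer is known as the E2 box, a binding sequence of Snail and Zeb repressors.
Krt8 chr15:102004483-102004592: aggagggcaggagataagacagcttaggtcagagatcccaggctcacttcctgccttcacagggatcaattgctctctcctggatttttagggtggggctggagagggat
Krt18 chr15:102027966-102028179: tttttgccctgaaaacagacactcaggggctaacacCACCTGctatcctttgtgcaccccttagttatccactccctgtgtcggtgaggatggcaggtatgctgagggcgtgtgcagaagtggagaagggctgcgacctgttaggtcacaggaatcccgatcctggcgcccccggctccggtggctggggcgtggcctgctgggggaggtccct

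RefSeq promoter windows, from 250 bases before to 50 bases after the gene's start, matched 5 of the 6 genes, the exception being Krt19. CACCTG, searched on both strands, was present in the windows of Krt7, Krt8 and Krt18 and absent from those of Krt20 and Vim. All 3 matches read CACCTG on the gene's own strand, and each is shown with 9 bases on either side. Of all 32851 windows of the same length, 20.2% held it.
Krt7 chr15:101412350-101412373: ccctgtcccCACCTGtgtgcgctc
Krt8 chr15:102004439-102004462: tgctgccctCACCTGagtcccgtc
Krt18 chr15:102027993-102028016: ggctaacacCACCTGctatccttt

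Counted from the RefSeq start, the hexamer lay at positions -44 to -39 in Krt7, -111 to -106 in Krt8 and -214 to -209 in Krt18. By the GENCODE bounds, only the Krt18 match lies before its gene, and the matches of Krt7 and Krt8 lie inside theirs. Of the 250 bases before the RefSeq start, 162 in Krt7, 140 in Krt8 and 36 in Krt18 are in GENCODE exons. Of the other motifs searched on both strands, TATAAA was in the windows of Krt8, Krt20 and Vim (13.6% of all windows) and GGGCGG in that of Krt7 alone (35.7%). TATAAA lay at -29 to -24 in Krt20 and at -32 to -27 in Vim. In Krt8 its 2 matches lay across the RefSeq start itself, at -3 to 3 and -1 to 5. CCAAT was found only in Vim (37.4%) and the AP-1 sequence TGANTCA in none of the 5 (7.81%). The motifs were chosen with the sequences in view. A match is a run of letters, not evidence of binding.

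**Figure D1:**
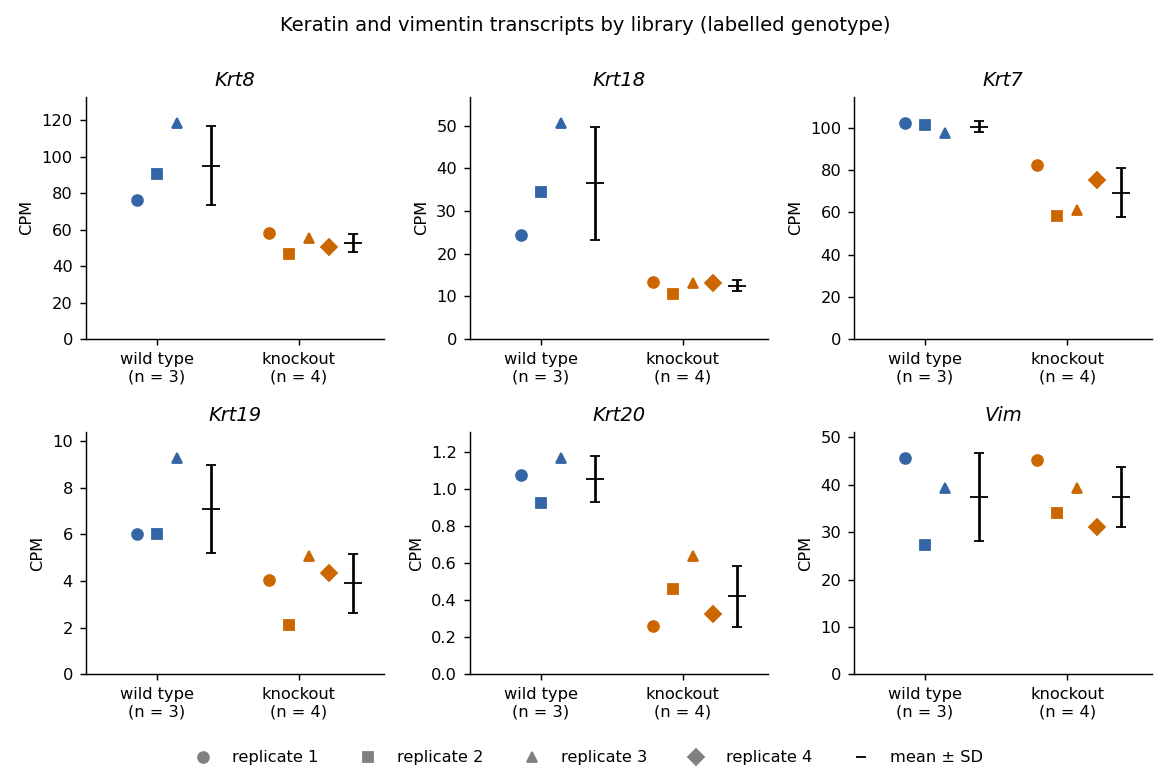
CPM of each gene (y axis, from 0) in every library, by labelled genotype, with the mean and SD of each group beside the points and marker shapes for replicates. Knockout-labelled libraries lie below all wild-type-labelled ones for the 5 keratins, and the groups of Vim overlap.

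Of the type II chains, Krt8 measured 76.4, 90.3 and 118.7 CPM with the wild-type label (replicates 1, 2 and 3, the order used throughout). With the knockout label it measured 58.2, 46.4, 55.1 and 50.7 CPM (replicates 1, 2, 3 and 4). Its highest knockout-labelled value was below its lowest wild-type-labelled one, and the wild-type-labelled libraries were the more spread. The means were 95.1 ± 21.6 CPM (SD, n = 3) and 52.6 ± 5.14 CPM (SD, n = 4). Krt8 was thus 1.81-fold lower with the knockout label, a log2 fold change of -0.85 (SE 0.14, 95% interval -1.18 to -0.53, adjusted p = 0.00313). Wild-type-labelled replicate 3 held the highest value, and without it the log2 fold change was -0.67, still called.

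Krt7 (ENSMUSG00000023039, chr15:101411043-101430313, plus strand), the type II chain of ducts and of the pelvic lining, was the steadiest keratin among wild-type-labelled libraries. It had 102.6, 101.6 and 97.8 CPM there and 82.6, 58.2, 61.1 and 75.3 CPM in the knockout-labelled libraries. Wild-type-labelled replicate 3, the highest for Krt8 and Krt18, was the lowest of its group for Krt7. Against 100.7 ± 2.53 CPM (SD, n = 3), the knockout-labelled mean was 69.3 ± 11.6 CPM (SD, n = 4), a 1.45-fold fall with a log2 fold change of -0.54 (SE 0.12, 95% interval -0.80 to -0.28, adjusted p = 0.00868).

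Among the type I chains, Krt18 stood at 24.4, 34.4 and 50.8 CPM under the wild-type label, and at 13.5, 10.5, 13.1 and 13.1 CPM under the knockout label. The groups were well apart, with a spread of 2.08-fold among the first and 1.29-fold among the second. The mean of Krt18, 36.5 ± 13.3 CPM (SD, n = 3), was 2.91-fold above the knockout-labelled mean of 12.5 ± 1.40 CPM (SD, n = 4) (log2 fold change -1.54, SE 0.23, 95% interval -2.07 to -1.01, adjusted p = 0.00246). Called genes that fell at least this much were 0.646% of all tested genes, and those that fell by 1 or more on the log2 scale were 1.54%. Leaving out wild-type-labelled replicate 3 brought the log2 fold change of Krt18 to -1.24, and it was still called.

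Krt20 (ENSMUSG00000035775, chr11:99428403-99438150, minus strand), a type I chain of umbrella cells in the urothelium and of injured tubules, was scarce. Its counts were 76, 69 and 101 in wild-type-labelled and 22, 33, 55 and 26 counts in knockout-labelled libraries, or 1.08, 0.923 and 1.17 CPM against 0.260, 0.461, 0.636 and 0.326 CPM. Counting error alone gave an exact Poisson 95% interval of 0.479 to 0.828 CPM for knockout-labelled replicate 3, the highest of its group. That for wild-type-labelled replicate 2, the lowest of its group, was 0.718 to 1.17 CPM. The 2 intervals overlapped, which by itself does not decide whether these libraries differ beyond counting error. Over the groups, Krt20 was 2.50-fold lower (log2 fold change -1.32, SE 0.31, 95% interval -2.02 to -0.63, adjusted p = 0.0115).

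Krt19 (ENSMUSG00000020911, chr11:100140810-100148665, minus strand), the smallest keratin and a marker of collecting ducts and of urothelial cells, had 6.01, 6.01 and 9.28 CPM in wild-type-labelled libraries. Its knockout-labelled values were 4.04, 2.12, 5.09 and 4.35 CPM. Both groups were widely spread, by 1.54-fold and 2.40-fold, though they did not overlap. The log2 fold change was -0.86 (SE 0.28, 95% interval -1.52 to -0.21) with an unadjusted p of 0.016 and an adjusted p of 0.0527 by edgeR. That estimate is close to the one of Krt8, with a larger standard error, and 9 of 19 alternative analyses called Krt19 lower.

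Vim (ENSMUSG00000026728, chr2:13573927-13582826, plus strand) had 45.7, 27.3 and 39.3 CPM in wild-type-labelled and 45.3, 34.0, 39.4 and 31.0 CPM in knockout-labelled libraries. The groups overlapped almost fully, with means of 37.4 ± 9.31 CPM (SD, n = 3) and 37.4 ± 6.29 CPM (SD, n = 4). The log2 fold change was 0.00 (SE 0.19, 95% interval -0.43 to 0.43, adjusted p = 0.999), so a difference of up to 1.35-fold in either direction lies within the interval. Without wild-type-labelled replicate 3, which stood apart in Y-linked genes, the log2 fold change of Vim was 0.03, that of Krt7 -0.57, that of Krt20 -1.25 and that of Krt19 -0.63. Krt7 and Krt20 were still called, and Krt19 had an adjusted p of 0.161.

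Levels of different genes were compared per kilobase of the annotated principal transcript. With the wild-type label, Krt8 was the most abundant at 48.6 ± 11.01 CPM per kilobase (SD, n = 3), followed by Krt18 at 25.4 ± 9.26 and Krt7 at 24.6 ± 0.619. The ranges of Krt18 and Krt7 overlapped. Vim came next at 17.1 ± 4.24 CPM per kilobase, then Krt19 at 4.50 ± 1.199 and Krt20 at 0.548 ± 0.0641, without overlap between neighbours. The order changed with the knockout label. Krt8 stayed first at 26.9 ± 2.62 CPM per kilobase (SD, n = 4), and Vim at 17.1 ± 2.87 and Krt7 at 16.9 ± 2.83 overlapped in the next place. Krt18, whose range had overlapped that of Krt7 under the wild-type label, came after it without overlap at 8.73 ± 0.972 CPM per kilobase. Krt19 at 2.48 ± 0.802 and Krt20 at 0.218 ± 0.0863 remained last. The places of Krt7 and Vim depend on the transcript chosen, since the annotated transcripts of Krt7 run from 351 to 4094 bases (4094 used) and those of Vim from 535 to 2926 (2193 used). A shorter transcript would give a higher level.

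The balance of Krt8 and Krt18 was then read as a ratio within each library. Per kilobase, the Krt8 level was 2.30, 1.93 and 1.72 times that of Krt18 under the wild-type label. It was 3.17, 3.26, 3.09 and 2.83 times as high in the knockout-labelled ones. Every knockout-labelled ratio exceeded every wild-type-labelled one, and within the wild-type label the ratio was lowest in replicate 3, where Krt18 was highest. The mean log2 ratio was 0.97 ± 0.21 (SD, n = 3) against 1.62 ± 0.09 (SD, n = 4), a difference of 0.65. A 2-sided exact permutation test over the 7 libraries gave p = 0.0571, the smallest that its 35 splits allow, so this design cannot reach 0.05 and the ratio is a description. The deposited normalized values gave the same difference, 0.65. They are the same counts times factors that were nearly equal for Krt8 and Krt18. These were 1.131 and 1.132 in wild-type-labelled replicate 1, and 0.886 and 0.879 in replicate 3 of that label. The match is therefore not a separate check. Per kilobase and without wild-type-labelled replicate 3, the difference was 0.55.

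Summed over every keratin gene, the level was 110.2 ± 20.8 CPM per kilobase (SD, n = 3) with the wild-type label and 61.9 ± 7.17 (SD, n = 4) with the other. Krt18 made up 18.4%, 22.8% and 26.5% of that sum with the wild-type label and between 13.7% and 14.6% in knockout-labelled ones. Its mean share was therefore 22.6% ± 4.10 (SD, n = 3) against 14.1% ± 0.350 (SD, n = 4). The share of Krt8 was nearly constant, at 43.9% ± 1.69 (SD, n = 3) and 43.5% ± 1.88 (SD, n = 4). Krt7 took 22.9% ± 4.62 (SD, n = 3) and 27.4% ± 3.06 (SD, n = 4), with overlapping ranges. Keratins outside the named 5 took 6.12% ± 1.40 (SD, n = 3) and 10.7% ± 2.31 (SD, n = 4). The sum and every share depend on the length used for Krt7, and a shorter one would raise the sum and the share of Krt7 and lower the other shares. The ratio of Krt8 to Krt18 does not depend on it.

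**Figure D2:**
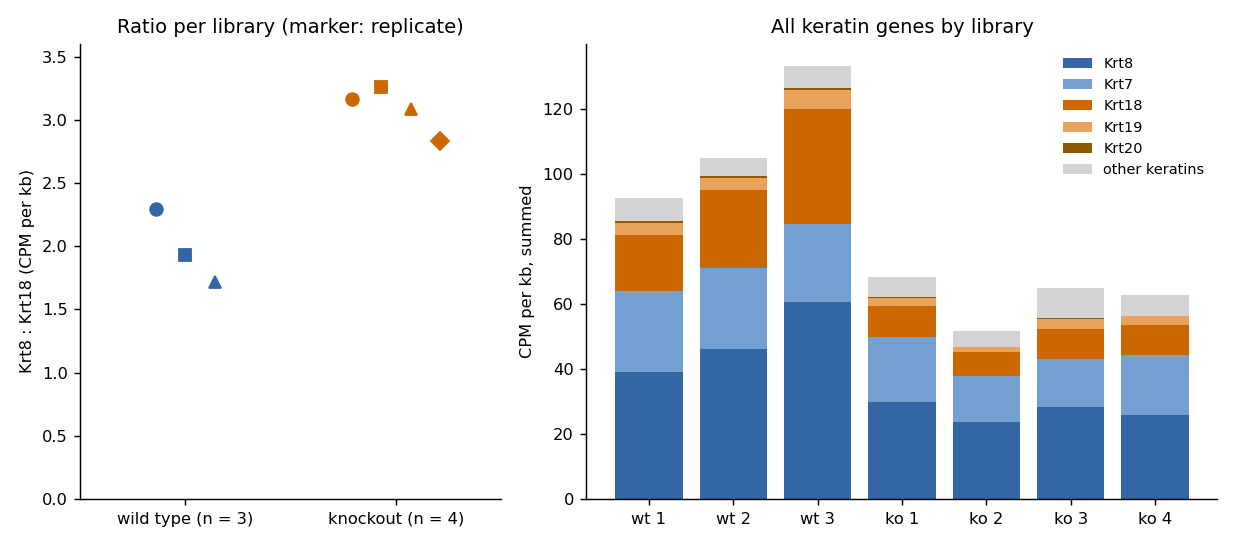
Left, the ratio of Krt8 to Krt18 in CPM per kilobase (y axis, from 0) for each library; right, stacked bars of the summed keratin level in CPM per kilobase for wild-type-labelled (wt) and knockout-labelled (ko) libraries, coloured by gene. The ratio is 1.72 to 2.30 with the wild-type label and 2.83 to 3.26 with the knockout label, and the Krt18 segment shrinks more than the Krt8 segment.

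Most other keratin genes, which serve stratified and hair epithelia among others, were little expressed. Of 45 of them, 23 had no count in any library and 7 were tested. Of those 7, 1 was called lower, a share near the 12.9% of all tested genes. The median log2 fold change of those 7 was 0.85 (-0.37 without knockout-labelled replicate 3), against -0.01 over all tested genes (quartiles -0.26 and 0.25). Krt80, a type II chain of the same chromosome 15 cluster as Krt7, was the single one called lower: it had 12.4, 11.8 and 11.4 CPM against 9.38, 7.42, 9.17 and 9.36 CPM (log2 fold change -0.42, SE 0.10, adjusted p = 0.0105). Krt5 and Krt15, the basal urothelial pair, varied widely within both groups and were not called. Krt5 had 0.808, 0.0267 and 1.04 CPM with the wild-type label and 0.567, 0.0140, 3.29 and 0.714 CPM with the other. Both genes were close to 0 in replicate 2 of each group.

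Among 12 tested filament genes of other classes, 2 were called lower and 10 were not called, with a median log2 fold change of -0.19. That is near the 12.9% of all tested genes called lower. Nes, the nestin gene, which in kidney is expressed by podocytes and endothelial cells, had 56.9, 52.1 and 44.3 CPM against 38.5, 28.5, 25.9 and 25.3 CPM (log2 fold change -0.79, SE 0.15, adjusted p = 0.00635). Its adjusted p was 0.0618 with replicate 2 of both groups left out. Lmna, which encodes the nuclear lamins A and C, fell by 0.36 on the log2 scale (SE 0.07, adjusted p = 0.00472). Desmin (Des), the filament gene of muscle and of mesangial cells, had a log2 fold change of -0.04 (adjusted p = 0.881).

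Proteins that anchor or bind keratin filaments were called in both directions. Of 17 tested genes, 5 were lower (3 without wild-type-labelled replicate 1 or without knockout-labelled replicate 3) and 2 higher, with a median log2 fold change of -0.10. Over all tested genes, 12.9% were called lower and 16.8% higher. Dsp, whose product desmoplakin ties keratins to desmosomes, had 81.1, 76.4 and 64.1 CPM against 53.6, 43.7, 45.2 and 51.2 CPM, a log2 fold change of -0.61 (SE 0.10, adjusted p = 0.00218). Plec, encoding the cytolinker plectin, fell by 0.45 on the log2 scale (SE 0.08, adjusted p = 0.00303). Sfn, the gene of stratifin, an adaptor protein known to bind Krt18, was at 7.89, 7.97 and 9.72 CPM against 4.54, 3.31, 4.00 and 4.35 CPM (log2 fold change -1.07, SE 0.13, adjusted p = 0.00055). The desmosomal cadherins Dsg2 and Dsc2 were also called lower. In the other direction, Evpl, which encodes envoplakin, rose from 15.4 to 24.2 CPM with the wild-type label to 38.0 to 43.8 CPM with the other (log2 fold change 1.08, SE 0.15, adjusted p = 0.00132). The desmosomal plakophilin gene Pkp3 rose as well, and Jup, Pkp2 and Dst were not called.

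**Figure D3:**
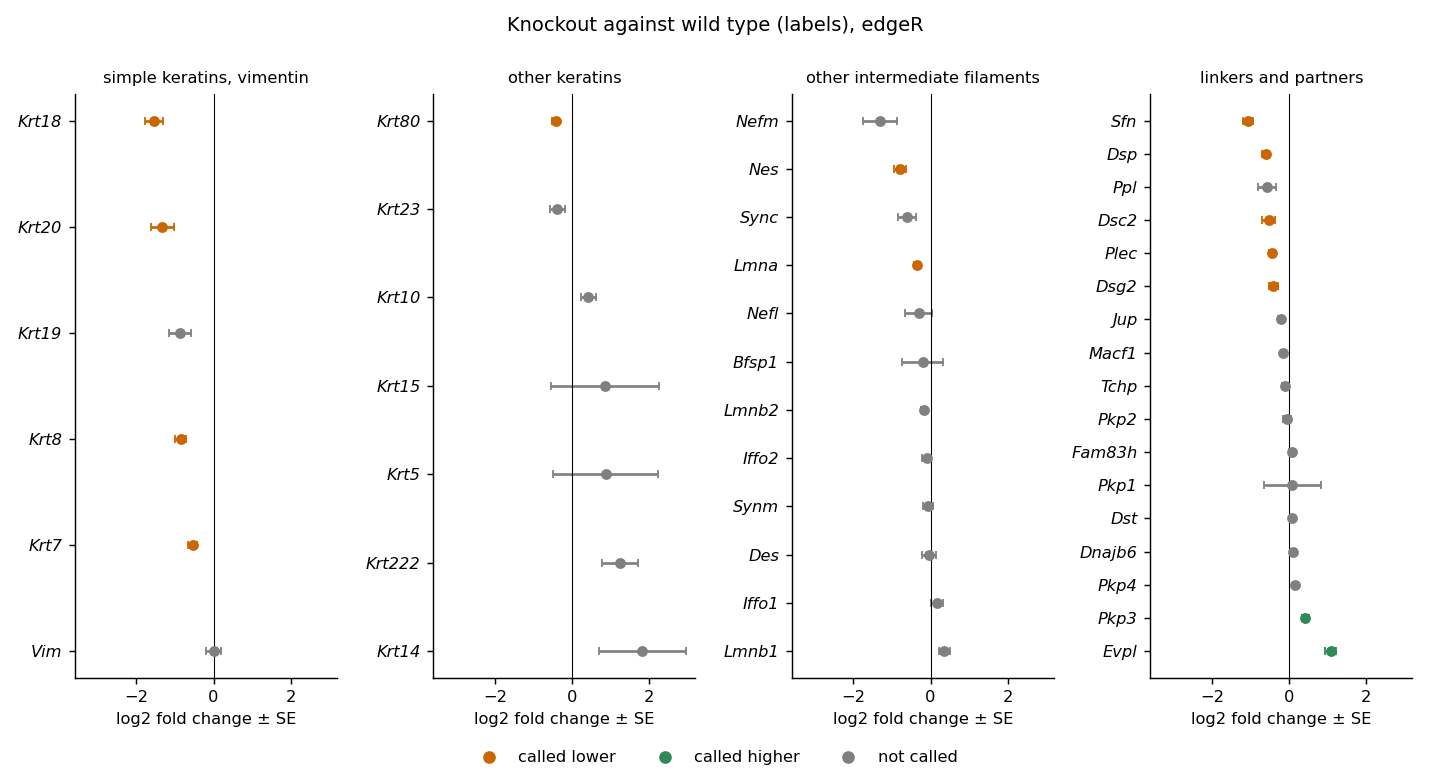
Log2 fold change (x axis, knockout against wild type by label) with its SE for every tested gene of 4 groups: the 6 named genes, other keratins, other intermediate filaments, and linkers and partners. Orange marks genes called lower, green called higher and grey not called, and 4 of the 5 simple keratins are orange while Vim sits at 0.

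Transcription factors known to act on keratin genes were then read from the same fit. Of 18 tested, 7 were called lower and 1 higher (12.9% and 16.8% of all tested genes were), with a median log2 fold change of -0.37. Fos, the immediate-early partner of Jun in AP-1, had 4.08, 9.46 and 6.71 CPM with the wild-type label and 0.526 to 1.05 CPM with the other (log2 fold change -3.10, SE 0.33, adjusted p = 0.000435). Klf4, a regulator of epithelial differentiation, fell by 0.82 on the log2 scale (SE 0.11, adjusted p = 0.001) and Grhl2, which maintains epithelial identity, by 0.74 (SE 0.15, adjusted p = 0.00554). Elf3, Tfap2a, Ets1 and Ets2 were the other 4 called lower. Ovol1, a zinc finger repressor of epithelia, was the 1 called higher (log2 fold change 0.63, SE 0.11, adjusted p = 0.00352).

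Genes by which epithelial and mesenchymal states are usually read gave 2 lower calls among 14 tested, a share near the 12.9% of all tested genes called lower. Their median was -0.20 on the log2 scale. The number called was 0 without wild-type-labelled replicate 1, 1 without each of 4 other libraries in turn (wild-type-labelled replicate 3 and knockout-labelled replicates 1, 2 and 3) and 2 or 3 without the rest. Cdh1, the E-cadherin gene, had 220, 216 and 179 CPM against 174, 147, 143 and 165 CPM (log2 fold change -0.38, SE 0.10, adjusted p = 0.0157), and Epcam, an epithelial adhesion molecule, fell by 0.52 on the log2 scale (SE 0.16, adjusted p = 0.0424). The E2-box repressors Snai1 (log2 fold change -0.65, adjusted p = 0.0891), Snai2 (-0.28, adjusted p = 0.234), Zeb1 (-0.17, adjusted p = 0.121) and Zeb2 (-0.24, adjusted p = 0.148) were not called. The call of Cdh1 was lost in 3 of 19 alternative analyses (without wild-type-labelled replicate 1, without replicate 2 of that group, and without replicate 2 of both groups). That of Epcam was lost in 6 of 19, for 5 of which 1 library was left out (replicates 1 and 3 of the wild-type label and 1, 2 and 3 of the knockout label).

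Marker lists of kidney cell types are given beside the keratins, since some of them also differed between the groups. For collecting duct principal cells, 5 of 10 markers were called lower (12.9% of all tested genes were) and 5 were not called. The count was 2 without knockout-labelled replicate 2 or without replicate 2 of both groups, 3 without each of 5 other libraries in turn and 6 without wild-type-labelled replicate 3. The summed CPM did not overlap between groups (478 to 684 with the wild-type label, 399 to 444 with the other). Aqp2, the vasopressin-regulated water channel, had a log2 fold change of -0.57 (adjusted p = 0.0264, 0.05 or more in 6 of 19 alternatives, among them the omission of each of replicates 1 and 2 of the wild-type label and 1, 2 and 3 of the knockout label), and Scnn1g, a subunit of the epithelial sodium channel, fell by 0.72 on the log2 scale (adjusted p = 0.00322). Of the 5 not called, Aqp4 (-0.13), Scnn1b (-0.23) and Hsd11b2 (-0.20) had negative log2 fold changes, and Fxyd4 (0.13) and Elf5 (0.85) positive ones. Abundant genes weigh most in the principal cell sum, which averaged 569 CPM with the wild-type label. Aqp2 averaged 201 CPM of this, Hsd11b2 106 CPM and Aqp3 87.6 CPM. Divided by the principal cell sum, Krt18 remained lower by 1.06 on the log2 scale, and its groups still did not overlap. For Krt8 the corresponding difference was -0.41, for Krt7 -0.13, for Krt19 -0.48 and for Krt20 -0.98, all with overlapping groups. Divided by the podocyte sum, Krt18 differed by -0.89 with overlapping groups, as the groups of the other 4 keratins also did. Divided by the endothelial sum, the groups of Krt18 (-1.11), Krt20 (-1.03), Krt19 (-0.53) and Krt8 (-0.46) did not overlap and those of Krt7 (-0.18) did. Divided by the proximal tubule sum, those of all 5 keratins did not overlap, with differences from -2.10 (Krt18) to -1.17 (Krt7). With the knockout label the 5 keratins were lower and that sum higher, each without overlap. This separation was therefore fixed in advance and is not a further result. Vim divided by the podocyte sum was higher with the knockout label by 0.61, and its groups did not overlap. Its groups did overlap when divided by the principal cell (0.44), endothelial (0.39) and proximal tubule (-0.60) sums. Among the wild-type-labelled libraries, replicate 2 held the highest principal cell sum, and replicate 3, with the lowest sum, held the most Krt18.

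Proximal tubule markers went the other way, with 7 of 10 called higher (16.8% of all tested genes were) and 3 not called. Lrp2, the gene of the endocytic receptor megalin that defines these cells, was high in every library and rose from 3808 to 4019 CPM with the wild-type label to 4831 to 5660 CPM with the other (log2 fold change 0.38, adjusted p = 0.0109). Their summed CPM was 9926 to 11460 with the wild-type label and 15600 to 17610 with the other. The sums of podocyte markers (4 of 5 called lower, 2 with replicate 2 of both groups left out) and endothelial markers (3 of 7 called lower) were also without overlap between groups. The share called lower over all tested genes was 12.9%. Podocyte sums ran from 403 to 498 CPM against 249 to 367 CPM, and endothelial sums from 431 to 576 CPM against 338 to 400 CPM. The podocyte gene Podxl alone averaged 249 CPM with the wild-type label, where the podocyte sum averaged 442 CPM. The part of any of these in the keratin differences was not tested.

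Thin limb markers, of which 1 of 4 was called lower (12.9% of all tested genes were), overlapped in their sum (64.2 to 136 CPM against 36.9 to 73.4 CPM). The one that fell was Cldn4, a tight junction claudin shared by collecting duct cells, which had 28.9, 32.7 and 55.4 CPM against 18.4, 11.9, 10.03 and 10.6 CPM (log2 fold change -1.61, SE 0.30, adjusted p = 0.00721). Like Krt18 and Krt8, it was highest in wild-type-labelled replicate 3.

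Urothelial markers, which would come from pelvic lining in the tissue piece, varied by library. Of 11 tested, 0 were called by edgeR, DESeq2 or limma-voom, and 0 had an unadjusted p under 0.05 in edgeR. Of all tested genes, edgeR called 29.7% in either direction. Their summed CPM was 10.5, 1.42 and 14.8 with the wild-type label and 9.52, 4.77, 23.5 and 10.7 with the other. Upk3a and Krt15 had no count in wild-type-labelled replicate 2, and Upk2 had none in knockout-labelled replicate 2. Slc14a2, the urea transporter of the inner medulla, stood at 0.0401 and 0.182 CPM in these libraries and at 9.10 to 20.4 CPM in the other 5. With both left out, Krt7 (log2 fold change -0.46), Krt8 (-0.84), Krt18 (-1.51) and Krt20 (-1.46) were all still called, and Krt19 (-0.77, adjusted p = 0.0385) was called too.

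Of 12 injured tubule markers, 2 were called lower and 1 higher (12.9% and 16.8% of all tested genes were), and their sums overlapped. Without wild-type-labelled replicate 2, 6 were called lower. Prom1 and Cd24a, surface molecules of scattered tubule cells, fell by 0.88 and 0.61 on the log2 scale (adjusted p = 0.0006 and 0.00993, the latter 0.0607 with replicate 2 of both groups left out), and the integrin subunit gene Itgb6 rose by 1.11 (adjusted p = 0.00051). Havcr1, which encodes kidney injury molecule 1, had a log2 fold change of 0.25 with an SE of 0.77 and was not called. Vimentin-rich cells other than the podocytes and endothelium above were read from 3 further lists. Of 6 fibroblast markers, Col1a1, a fibrillar collagen chain, was higher (log2 fold change 1.31, adjusted p = 0.0292) and Pdgfrb, a mesenchymal growth factor receptor, lower (-0.35, adjusted p = 0.0168). Without wild-type-labelled replicate 3, 2 fibroblast markers were called higher. Of 5 smooth muscle markers, 0 were called by edgeR, DESeq2 or limma-voom, and 0 had an unadjusted p under 0.05 in edgeR. Of 8 leukocyte markers, only Csf1r, the macrophage growth factor receptor, was called, and it was higher (0.85, adjusted p = 0.0269); without wild-type-labelled replicate 2, and without replicate 2 of both groups, 3 of the 8 were called lower. The summed CPM of each of these 3 lists overlapped between groups. Col1a1 and Csf1r each lost the call in 5 of 19 alternatives, which were no filter on low counts and the omission of replicate 1 of the wild-type label or of any of replicates 1, 3 and 4 of the knockout label.

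**Figure D4:**
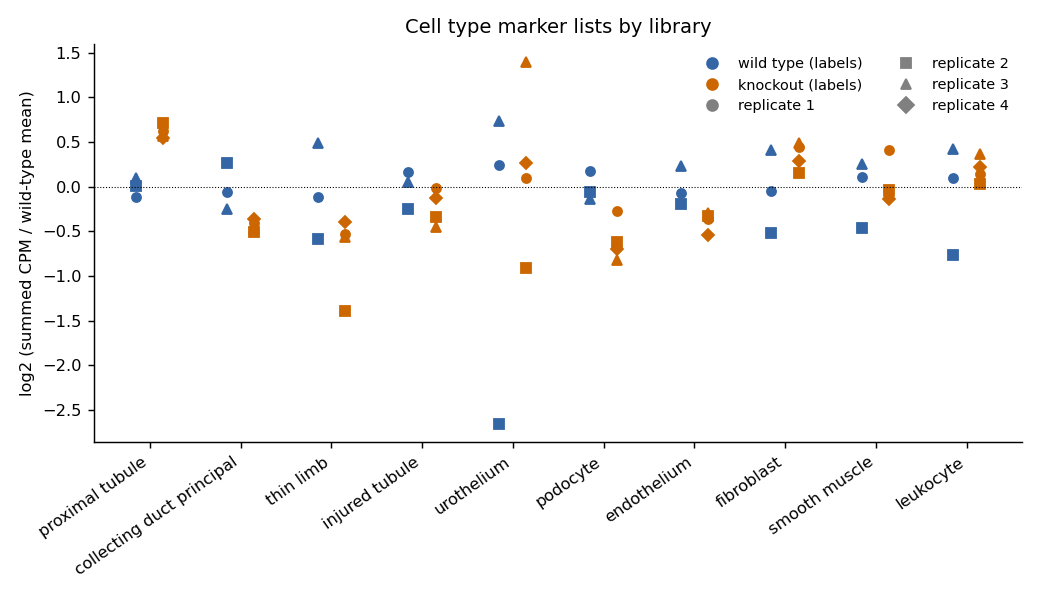
Summed CPM of each marker list in every library, as log2 of its ratio to the wild-type-labelled mean (y axis), with blue for the wild-type and orange for the knockout label and marker shapes for replicates. Principal cell, podocyte and endothelial sums are lower and proximal tubule sums higher in all 4 knockout-labelled libraries, and urothelial sums scatter across both groups.

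Nearby genes were compared to see how local the differences were, beside the 12.9% of all tested genes called lower and the 16.8% called higher. Within 250 kilobases of Krt8, 3 of 9 tested genes were called lower, namely Krt18, the retinoic acid receptor gene Rarg (log2 fold change -0.85, adjusted p = 0.000846) and the focal adhesion gene Tns2 (-0.71, adjusted p = 0.0133). Csad, a taurine synthesis enzyme gene in the same window, rose by 1.02 on the log2 scale (adjusted p = 9.83e-05). Around Krt7, 2 of 6 tested genes, Krt80 and Grasp, were lower. Around Krt19, 1 of 7 was called, and it was lower. Around Krt20, 0 of 5 were called by edgeR, DESeq2 or limma-voom. In edgeR 3 of these had an unadjusted p under 0.05, and all 3 were higher with the knockout label, opposite to Krt20. They were Gm11940 (log2 fold change 1.26), Krt222 (1.24) and Krt10 (0.42). Around Vim, 1 of 4 tested genes, the sialyltransferase gene St8sia6, was called, and it was higher (log2 fold change 1.02, adjusted p = 0.00059). Exons of Krt8 share 101 bases, 5.16% of its length, with the antisense transcript Gm36026, and those of Krt7 share 77 bases with Gm671. Both lie on the opposite strand, and neither has a row in the count table. The strand setting of the counting is not given. Whether their reads, if any, entered the counts of Krt8 and Krt7 is therefore not known.

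Each gene's profile over the 7 libraries was set against 14024 others by the root mean square distance between log2 CPM values centred on their means, and predicted gene models were passed over. The nearest to Krt8 were Snord15b (distance 0.10), Snora74a (0.10) and Extl1 (0.10), which are 2 small nucleolar RNAs and a glycosyltransferase gene. For Krt18 they were Tm6sf2 (0.16), Cyp2d22 (0.19) and Apoe (0.21). Krt8 ranked 37 in likeness to Krt18 at a distance of 0.34, and Krt18 itself varied by a root mean square of 0.79. In likeness to Krt8, however, Krt18 ranked only 1784 of 14024, after Krt7 (605), Krt19 (775) and Krt20 (1354). Sulf2 (0.04), Cnksr3 (0.06) and Tmem132a (0.06) were nearest to Krt7, and Wnt4 (0.21), Snora21 (0.23) and Nbl1 (0.24) to Krt19, for which Krt8 ranked 24. Ccrl2 (0.19), Galnt15 (0.19) and Fam174b (0.20) were nearest to Krt20. Vim lay closest to Cdh13 (0.09), the T-cadherin gene, to Layn (0.10) and to Myh11 (0.11), the smooth muscle myosin gene, and none of these 3 was called. These distances describe 7 libraries that share their scaling.

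**Figure D5:**
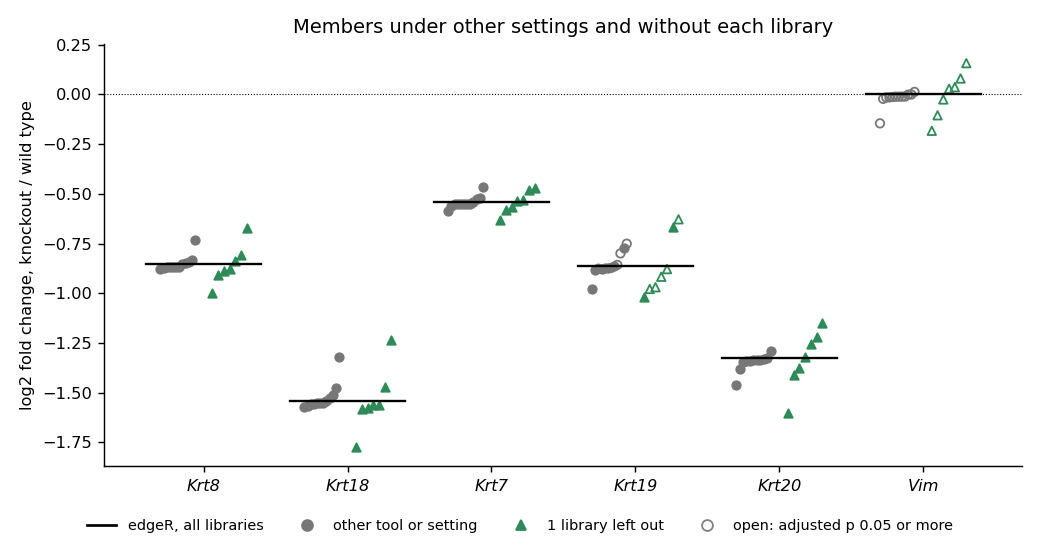
Log2 fold change (y axis) of each of the 6 genes in edgeR with all libraries (black line), under other tools or settings (grey circles) and without each library in turn (green triangles), with open symbols where the adjusted p was 0.05 or more. Krt7, Krt8, Krt18 and Krt20 stay filled throughout, Krt19 lies on both sides of the threshold, and Vim scatters about 0.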

How the data were processed

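RNA of whole kidney was sequenced from directional libraries, per the labels' protocols, and groups follow the genotype in the labels. Replicate numbers follow the order of deposit and pair nothing. The authors deposited expected counts per gene (estimated reads, whole numbers) and normalized values, a signal equal to the counts times gene-specific factors of unstated origin. DRAGEN, DESeq2 and the build mm10 are named, without versions, per the submitters' processing notes. For the annotation, strand setting and any filter, "not given in the sources used here" applies.

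Counts were tested with edgeR 4.0.16 in R 4.3.3 (quasi-likelihood test, robust, TMM scaling, filterByExpr, 2-sided, Benjamini-Hochberg adjustment over 17964 genes, called at 0.05). The SE is the log2 fold change divided by the square root of F. Replicates varied by a biological coefficient of variation of 15.2%. All 42256 identifiers matched GENCODE M21, which is on the assembly of mm10. Lengths are those of the principal transcript, and CPM uses TMM-scaled sizes. Counting intervals (95%) cover counting error only. The edgeR step was tested on simulated data. Over 21 pairs of libraries the median chi-square per gene was 2.68 to 12.3, which is above sampling noise for each pair.

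The members, gene lists, motifs and tests were chosen with earlier results of these data known. Named genes were the 6 members, Cdh11, up to 4 called genes of each list with the smallest adjusted p and a mean of at least 1 CPM (otherwise the 2 most abundant), and the 3 genes with the most similar profile to each member (prior of 0.25 CPM, predicted Gm and Rik gene models left out). Others were named after their values were seen: Krt5, Krt15, Des, Pkp3, Dsg2, Dsc2, Jup, Pkp2, Dst, Elf3, Tfap2a, Ets1, Ets2, Snai1, Snai2, Zeb1, Zeb2, Upk2, Upk3a, Slc14a2, Havcr1, Lrp2, Aqp4, Scnn1b, Hsd11b2, Fxyd4, Elf5 and genes near a member. Some genes that meet this rule are counted but not named.

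Alternatives replaced the tool (DESeq2 1.42.0, or limma-voom in limma 3.58.1 with quality weights), the scaling (relative log expression, upper quartile), the filter (none, or an average CPM of 1 or more), robust estimation (without it) or the genes (only those coding for protein). Others added 1 surrogate variable (sva 3.50.0), used limma-trend with deposited normalized values as log2(value + 1), took the deposited factors as offsets, or left out each library. Leaving out replicate 2 of both groups was added after seeing the data. Further computing was done in pandas 2.3.3 and SciPy 1.17.1 under Python 3.11.15.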

Additional observations from a re-analysis of the deposited data

Results flagged for a closer look

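A gap test (Dixon's, at its 95% critical value) was applied within the 4 knockout-labelled libraries to 63 values, and 7 stood apart, where chance flags about 1 in 20. Krt18 was low in knockout-labelled replicate 2, at 10.5 CPM against 13.1 to 13.5 CPM in the other 3, and Krt80 was lowest in the same library, at 7.42 CPM. In knockout-labelled replicate 1 the sum of the other intermediate filament genes (166 CPM), the sum of smooth muscle markers (165 CPM), the smooth muscle gene Tagln (44.6 CPM) and the podocyte gene Nphs1 (24.4 CPM) were highest. Scnn1g was lowest in knockout-labelled replicate 3, at 35.3 CPM. Without knockout-labelled replicate 2 Krt18 was still called lower, within the range given for the omission of 1 library. The groups of 3 wild-type-labelled libraries are too small for this test.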

How the results depend on the processing

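Krt7, Krt8, Krt18 and Krt20 kept their direction and their call under every alternative that gave a value (19 for the first 3 and 18 for Krt20, which a mean of at least 1 CPM removed). With 1 library left out at a time, the log2 fold change ran from -0.63 to -0.47 for Krt7, from -0.9999 to -0.67 for Krt8, from -1.77 to -1.24 for Krt18 and from -1.60 to -1.15 for Krt20. The weakest values of Krt8 and Krt18 were those without wild-type-labelled replicate 3. Krt19 ran from -1.02 to -0.63 (adjusted p from 0.0408 to 0.161) in these fits and was called without knockout-labelled replicate 2 and without replicate 3 of that group. Krt19 was also called with DESeq2 (-0.88), relative log expression scaling (-0.87), an average CPM of 1 or more as filter (-0.88), estimation that was not robust (-0.86), a surrogate variable (-0.98), protein-coding genes only (-0.89) and replicate 2 of both groups left out (-0.77); the cause was not tested. Vim ran from -0.18 to 0.16 without 1 library, with 4 of these 7 values above 0, and was 0.0127 by limma-trend on the deposited normalized values; none was called (adjusted p from 0.41 to 0.999 over all alternatives). The log2 ratio of Krt8 to Krt18 differed by 0.55 to 0.76 without 1 library and by 0.61 without replicate 2 of both groups.

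Over all tested genes, 5327 were called, and 4630 to 5951 under the planned settings and 3804 to 5300 without 1 library. With replicate 2 of both groups left out, so with 2 libraries against 3, 3072 genes were called, 1786 higher and 1286 lower. Among the lists, called-lower counts ran from 3 to 8 for linkers, 5 to 10 for keratin regulators, 0 to 3 for epithelial and mesenchymal genes and 2 to 6 for both principal cell and injured tubule markers. The median of the other keratins was -0.37 without knockout-labelled replicate 3, against 0.85 with all libraries. Krt20, with 22 to 101 counts per library, is the gene of the 6 most limited by depth. No paired analysis was possible because the labels give no replicate numbers.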
